A study of Homo sapiens with 6 samples.

Results

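The 10 genes described here encode secreted Wnt ligands whose RNA was read in HCT116 colorectal carcinoma cells: WNT2, WNT2B, WNT3, WNT4, WNT5A, WNT6, WNT7A, WNT7B, WNT11 and WNT16. They were taken by symbol from the deposited expression table, which lists 18236 genes, 18 of them of the WNT family, and the rule itself uses no measured value. Both cell lines derive from HCT116, which carries the stabilizing deletion Δ45 in 1 of its alleles of CTNNB1 (β-catenin). The wild-type cells (CTNNB1 WT/-) retain only the intact allele because the mutant allele was disrupted, and the mutant cells (CTNNB1 -/Δ45) retain only the deleted allele because the intact allele was disrupted. RNA of 3 replicates of each untreated line was sequenced, and fold changes are given as mutant over wild-type. Each genotype is represented by 1 disrupted line, so that genotype cannot be told apart from any other difference between the lines. The labels do not state that replicates were separate cultures, so the spread behind each p-value is that of these samples and may be technical.

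Wnt ligands are cysteine-rich glycoproteins that receive a lipid chain from the acyltransferase PORCN in the endoplasmic reticulum and are carried to the cell surface by WLS. Outside the cell the lipid docks into a Frizzled receptor. With the co-receptors LRP5 or LRP6 this protects β-catenin from destruction (canonical signaling), and with ROR or RYK receptors it feeds into planar cell polarity, JNK and calcium responses (non-canonical signaling). The deletion Δ45 removes a phosphorylation site through which β-catenin is marked for destruction, a step downstream of ligand and receptor. In the intestine, Wnt ligands come from stromal cells around the crypt and, in the mouse, from Paneth cells.

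The libraries held 21.8 to 57.9 M reads (M, 1000000) in genes. The deposited values are read counts divided by 1 size factor per library, called normalized counts below, and they sum to 35.8 to 37.3 M in each. CTNNB1 itself was read at 12532 to 18594 normalized counts in wild-type and 17838 to 18704 in mutant cells, and these counts do not distinguish the alleles. AXIN2, a direct target of β-catenin, was read at 133 to 184 in wild-type and 991 to 1039 in mutant cells (log2 fold change 2.74, SE 0.22, limma adjusted p = 0.006). The libraries numbered 1 stood apart from the others of their line. The SD of the log2 difference over genes was 0.51 between wild-type 1 and mutant 1, against 0.67 and 0.74 between wild-type 1 and the other wild-type libraries and 0.84 and 0.85 between mutant 1 and the other mutant libraries. The markers of epithelial cells summed to 57931 to 60865 normalized counts in wild-type and 45243 to 50309 in mutant cells, with EPCAM and CDH1 lower and the other 4 of the 6 not called, CDX2 (log2 fold change 1.06) and KRT18 (0.49) among them. The fibroblast markers summed to 3774 to 4803 and 2227 to 4675 (1 of 4 tested lower), the endothelial markers to 118 to 152 and 65.3 to 89.2 (1 of 2 lower), the immune markers to 3342 to 5271 and 726 to 1296 (1 of 2 lower) and the neural or glial markers to 23.3 to 28.3 and 13.8 to 23.2 (1 of 1 lower). The fibroblast marker PDGFRA and the neural marker ELAVL4 were not in the table, which lists no gene at 0 in every library. Of all genes tested, 10.0% were called lower. The fibroblast sum was mostly COL1A1 (3887 and 2640 on average). Every other fibroblast marker in the table averaged far less. PDGFRB averaged 201 in wild-type and 227 in mutant cells, FOXL1 121 and 231, and COL3A1 115 and 39.3. Lower still were DCN (10.7 and 8.27), LUM (3.90 and 2.11) and COL1A2 (2.93 and 4.64). The immune sum was mostly CD68, a lysosomal protein that many cells make, while the leukocyte marker PTPRC averaged 1.13 and 2.96 normalized counts. The part of these markers in the ligand values was not tested.

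Of the 10 ligands, 1 rose in mutant cells (WNT16), 4 fell (WNT7A, WNT5A, WNT2 and WNT7B) and 5 did not pass the test (WNT2B, WNT3, WNT4, WNT6 and WNT11), where passing means a Benjamini-Hochberg adjusted p under 0.05 over the 14539 genes averaging 10 or more normalized counts (limma on log2 values with 1 added). Of all genes tested, 27.3% passed, 17.3% higher and 10.0% lower. All 10 ligands entered the test, with WNT5A reaching the minimum only through its wild-type libraries. The median log2 fold change was -0.23 over the ligands and 0.24 over all genes. Since scaling by TMM or DESeq2 factors takes the all-gene median to 0.01, changes are also given relative to 0.24. These follow below for WNT7A, WNT7B, WNT16 and WNT6. For the others of the 10 they were -3.92 (WNT5A), -2.43 (WNT2), -1.26 (WNT4), 0.78 (WNT2B), 0.46 (WNT3) and 0.41 (WNT11). The 3 wild-type and 3 mutant values did not overlap for the same 5 ligands that passed, and for 45.7% of all genes. With edgeR on the recovered reads, which called 23.4% of genes, the same 5 ligands passed in the same directions. An exact permutation test of 3 against 3 libraries cannot go below p = 0.1, the value of each of the 5. In a bulk RNA sample, fewer cells making a ligand and less of its RNA per cell cannot be told apart.

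These calls rested on the libraries numbered 2 and 3. In limma, leaving out wild-type 2, wild-type 3 or mutant 3 left 0 of the 10 ligands called, and leaving out mutant 2 left only WNT7A, with 0 to 23 of all genes called in these fits. Without wild-type 1 there were 6 ligands called (WNT2B added), and without mutant 1 there were 7 (WNT2B and WNT4 added), among 7184 and 8261 of all genes. Each of the 5 ligands kept its direction and an unadjusted p under 0.05 in all 6 of these fits. Of the 14539 genes, 4168 to 9308 had an unadjusted p under 0.05 in these fits. The 5 were picked by their calls in all 6 libraries, so these fits are no independent check of them.

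**Figure D1:**
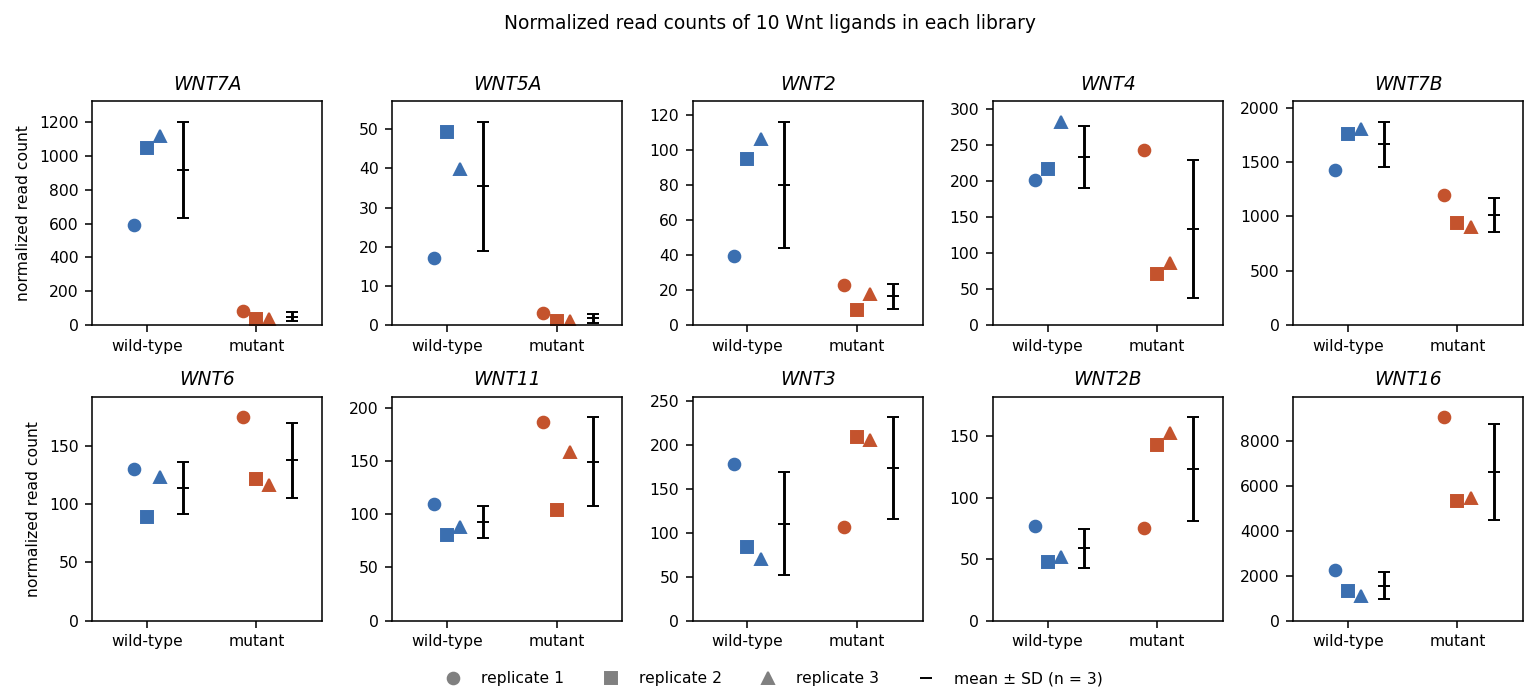
Normalized read count of each of the 10 ligands in the 3 wild-type (blue) and 3 mutant (red) libraries, with symbols for the replicate number and bars for the mean ± SD. Each panel starts at 0 and has its own scale. WNT7A, WNT5A, WNT2, WNT7B and WNT16 have no overlap between the lines, and the library numbered 1 lies nearest the other line in wild-type WNT7A (592), WNT5A (17.2) and WNT2 (39.3).

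The sequences around the starts of WNT16, WNT7A, WNT5A and WNT2 are shown because these 4 changed the most (RefSeq, build GRCh38.p14, 250 bases before to 50 after each start, 5′ to 3′ on the strand of the gene). Capitals mark CAGGTG, the E-box that ZEB repressors bind, found on either strand, and windows without it have no capitals.
WNT16, chr7:121328750-121329049, plus strand: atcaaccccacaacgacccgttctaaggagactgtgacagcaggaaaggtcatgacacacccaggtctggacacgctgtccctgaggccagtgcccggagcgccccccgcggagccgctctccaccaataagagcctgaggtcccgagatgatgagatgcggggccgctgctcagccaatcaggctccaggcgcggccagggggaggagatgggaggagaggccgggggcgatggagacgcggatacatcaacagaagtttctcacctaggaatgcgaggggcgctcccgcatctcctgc
WNT7A, chr3:13880022-13880321, minus strand: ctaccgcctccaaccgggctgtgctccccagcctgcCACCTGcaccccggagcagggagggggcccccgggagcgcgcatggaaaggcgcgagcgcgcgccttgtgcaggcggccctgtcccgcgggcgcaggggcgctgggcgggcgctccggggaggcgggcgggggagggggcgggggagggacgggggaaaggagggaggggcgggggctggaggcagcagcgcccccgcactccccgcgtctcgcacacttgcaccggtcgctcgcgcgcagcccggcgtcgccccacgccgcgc
WNT5A first start, chr3:55487257-55487556, minus strand: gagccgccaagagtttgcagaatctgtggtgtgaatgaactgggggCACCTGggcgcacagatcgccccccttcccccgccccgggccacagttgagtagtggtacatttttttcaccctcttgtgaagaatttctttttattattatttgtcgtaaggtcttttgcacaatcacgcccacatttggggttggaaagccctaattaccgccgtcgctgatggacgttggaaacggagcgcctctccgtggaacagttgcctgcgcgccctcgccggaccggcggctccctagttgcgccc
WNT5A second start, chr3:55481349-55481648, minus strand: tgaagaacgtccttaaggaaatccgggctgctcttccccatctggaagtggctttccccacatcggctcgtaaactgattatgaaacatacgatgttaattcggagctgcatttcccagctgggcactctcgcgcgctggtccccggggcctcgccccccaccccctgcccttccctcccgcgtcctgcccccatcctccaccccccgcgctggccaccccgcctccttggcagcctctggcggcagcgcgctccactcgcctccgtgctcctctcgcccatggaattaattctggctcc
WNT2, chr7:117323009-117323308, minus strand: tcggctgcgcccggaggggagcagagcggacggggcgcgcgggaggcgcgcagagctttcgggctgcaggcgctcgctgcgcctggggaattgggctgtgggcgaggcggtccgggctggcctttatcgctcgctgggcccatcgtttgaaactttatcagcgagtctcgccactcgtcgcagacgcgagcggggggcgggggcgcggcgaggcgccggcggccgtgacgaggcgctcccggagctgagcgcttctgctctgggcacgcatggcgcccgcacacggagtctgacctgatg
The GC content was 63.7% for WNT16, 80.3% for WNT7A, 56.3% and 63.7% for the WNT5A windows and 72.7% for WNT2, against a median of 58.7% over 35116 windows of all genes. The ratio of observed to expected CpG was 0.659, 0.834, 0.884, 0.800 and 1.12 in the same order, with a median of 0.579 over all windows.

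Windows were found for 8 of the 10 ligands, 10 windows in all, with a GC content from 56.3% to 85.7%. The motif of TCF factors, the DNA-binding partners of β-catenin (CTTTGAT), was in 0 of the 10 windows and in 2.62% of all windows. That of AP-1 (TGANTCA), bound by JUN and FOS dimers, was also in 0 of the 10 and in 7.71% of all windows. The E-box CAGGTG was in 3 of the 10, at position -214 in WNT7A, -204 in the first WNT5A window and -184 in the second WNT2B window, and in 20.6% of all windows. Both strands were searched, the 3 motifs do not overlap one another in these windows, and a match is a run of letters and not a site shown to be bound.

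WNT7A had the largest log2 change of the 10 in limma and, by little, in edgeR (-4.38, against -4.33 for WNT5A). In DESeq2 the change of WNT5A was larger (-4.47, against -4.41 for WNT7A). WNT7A signals through Frizzled with the co-receptors RECK and ADGRA2 in brain vessels and patterns the limb and the female reproductive tract in the mouse. The gene lies on chromosome 3 from 13857755 to 13921568 on the minus strand (GRCh37, the build of the deposited data, with GENCODE 44 annotation, as for all genes below). The wild-type libraries held 592, 1044 and 1116 normalized counts and the mutant libraries 81.6, 35.4 and 35.0. Every mutant library was below every wild-type one, and the libraries numbered 1 were the closest to each other. The mean was 917 ± 284 (SD, n = 3) in wild-type and 50.7 ± 26.8 in mutant cells, 18.1-fold lower. WNT7A RNA fell by 4.21 on the log2 scale (SE 0.42, 95% interval -5.20 to -3.22, limma adjusted p = 0.00779, edgeR adjusted p = 0.0133), or -4.46 relative to the median gene. Without single libraries the limma change stayed between -4.61 and -4.01, with adjusted p from 0.0039 to 0.0893. It was not called without wild-type 2, wild-type 3 or mutant 3.

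WNT5A, the main ligand of non-canonical signaling through ROR receptors, was read far less. It lies on chromosome 3 from 55499743 to 55524567 on the minus strand. The wild-type libraries held 14, 57 and 24 reads (17.2, 49.2 and 40.0 normalized counts) and the mutant libraries 5, 1 and 1 reads (3.16, 1.11 and 1.06). Every mutant library was at 5 reads or fewer, so that the fold rests on few molecules. Summed over libraries, 95 reads in wild-type stood against 7 in mutant cells, a depth-corrected ratio of 18.1 with an exact 95% interval of 8.44 to 46.2 that covers counting error only. On the log2 scale WNT5A fell by 3.67 (SE 0.54, limma adjusted p = 0.0224, edgeR adjusted p = 0.0257). Without single libraries the adjusted p in limma ran from 0.0055 to 0.153, and the call was lost without wild-type 2, wild-type 3, mutant 2 or mutant 3. An antisense transcript, WNT5A-AS1, overlaps the gene. Whether counting used strand is not given in the sources used here, and reads of overlapping genes on opposite strands may then not be told apart.

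WNT2, a canonical ligand of the embryonic lung and of stromal cells, lies on chromosome 7 from 116915505 to 116963206 on the minus strand. Its normalized counts were 39.3, 95.0 and 107 in wild-type and 22.8, 8.85 and 18.0 in mutant libraries. The lines did not overlap, though wild-type 1 lay closer to mutant 1 than to the other wild-type libraries. The mean was 80.3 ± 36.0 against 16.6 ± 7.08 (SD, n = 3), 4.85-fold lower. WNT2 fell by 2.18 on the log2 scale (SE 0.52, limma adjusted p = 0.0410, edgeR adjusted p = 0.0388), and by limma it was not called without wild-type 2, wild-type 3, mutant 2 or mutant 3 (adjusted p up to 0.161). The CFTR gene overlaps WNT2 on the opposite strand and averaged 1.64 normalized counts in wild-type and 3.30 in mutant cells.

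WNT7B, the closest relative of WNT7A, is a canonical ligand of lung and kidney epithelium, on chromosome 22 from 46316246 to 46373042 on the minus strand. It was read at 1426, 1762 and 1805 normalized counts in wild-type and at 1198, 939 and 907 in mutant libraries. The lines did not overlap, and the gap between wild-type 1 and mutant 1 was the smallest. With means of 1664 ± 207 and 1015 ± 159 (SD, n = 3) it was 1.64-fold lower, a much smaller change than that of WNT7A. WNT7B fell by 0.72 on the log2 scale (SE 0.19, limma adjusted p = 0.0427, edgeR adjusted p = 0.0413), or -0.96 relative to the median gene. The limma call was lost without wild-type 2, wild-type 3, mutant 2 or mutant 3, where the adjusted p reached 0.162.

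WNT16, a ligand known for its part in bone and joint tissue, was the ligand that rose. The gene lies on chromosome 7 from 120965421 to 120981158 on the plus strand. Normalized counts were 2238, 1311 and 1096 in wild-type and 9051, 5319 and 5433 in mutant libraries. Every mutant library was above every wild-type one, and the library numbered 1 was the highest in both lines. The mean rose from 1548 ± 607 to 6601 ± 2123 (SD, n = 3), 4.26-fold higher. This is a log2 fold change of 2.11 (SE 0.32, 95% interval 1.36 to 2.87, limma adjusted p = 0.0245, edgeR adjusted p = 0.0294), or 1.87 relative to the median gene. Without single libraries the limma change stayed between 1.86 and 2.41, and the call was lost without wild-type 2, wild-type 3, mutant 2 or mutant 3 (adjusted p up to 0.153).

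**Figure D2:**
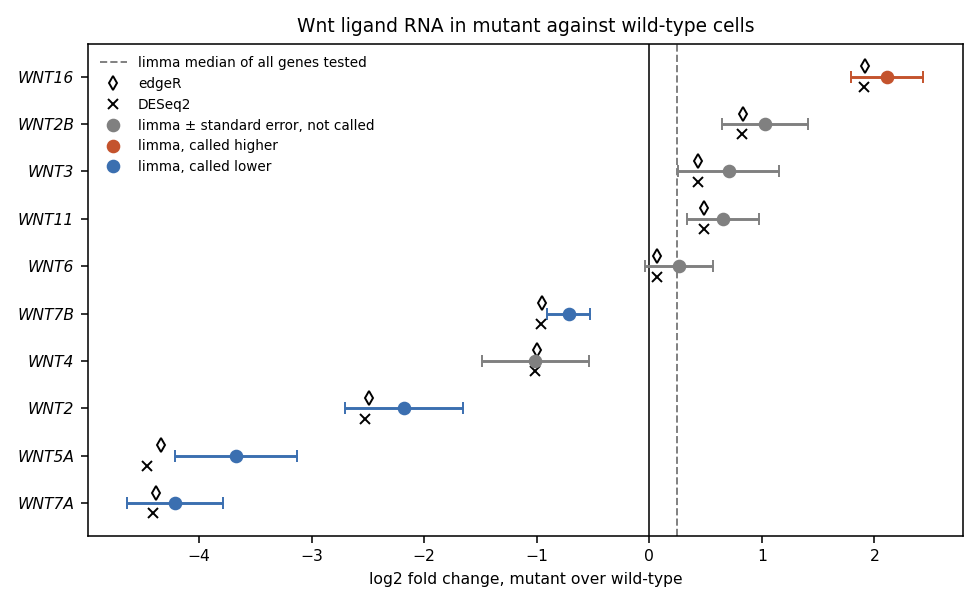
Log2 fold change of each ligand, mutant over wild-type, from limma (filled points with 1 standard error, red called higher, blue called lower, grey not called), edgeR (diamonds) and DESeq2 (crosses). The dashed line is the limma median of all genes tested (0.24). WNT7A (-4.21), WNT5A (-3.67) and WNT2 (-2.18) lie far to the left and WNT16 (2.11) to the right.

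For the 5 ligands that did not pass, the libraries of the lines overlapped. WNT2B, a canonical ligand of intestinal stroma, lies on chromosome 1 from 113009163 to 113072787 on the plus strand and was read at 77.3, 47.5 and 51.6 normalized counts in wild-type and 75.3, 143 and 153 in mutant libraries. Mutant 1 lay among the wild-type values and the other mutant libraries above them. The log2 fold change was 1.03 (SE 0.38, 95% interval 0.13 to 1.92, limma adjusted p = 0.0733). ST7L, which overlaps WNT2B on the opposite strand, was at 255 and 426 normalized counts on average (log2 fold change 0.74, limma adjusted p = 0.0898). WNT3, which mouse Paneth cells supply to crypt stem cells, lies on chromosome 17 from 44839872 to 44910520 on the minus strand. It was read at 178, 83.8 and 69.9 in wild-type and 107, 209 and 206 in mutant libraries, with wild-type 1 above mutant 1 and the reverse for the other numbers. Its log2 fold change was 0.71 (95% interval -0.34 to 1.76, limma adjusted p = 0.230).

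WNT4, needed for kidney tubules and the female reproductive tract, lies on chromosome 1 from 22443806 to 22470462 on the minus strand. It was read at 201, 218 and 283 normalized counts in wild-type and 244, 70.8 and 86.0 in mutant libraries. Mutant 1 lay within the wild-type range and the other mutant libraries well below it. The log2 fold change was -1.01 (95% interval -2.13 to 0.11, limma adjusted p = 0.126). WNT11, a non-canonical ligand of cell movements in the embryo, lies on chromosome 11 from 75897369 to 75921780 on the minus strand and was read at 109, 80.4 and 88.3 in wild-type and 187, 104 and 158 in mutant libraries. Only mutant 2 lay within the wild-type range, and the log2 fold change was 0.66 (95% interval -0.09 to 1.40, limma adjusted p = 0.134). WNT6, an epithelial ligand on chromosome 2 from 219724528 to 219738955 on the plus strand, was read at 130, 89.0 and 123 in wild-type and 175, 122 and 117 in mutant libraries. The ranges overlapped, with a log2 fold change of 0.27 (95% interval -0.44 to 0.97, limma adjusted p = 0.489), or 0.02 relative to the median gene, and in edgeR the value turned to -0.05 without wild-type 2 and to -0.22 without mutant 1.

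Libraries were also compared within each replicate number. For 6 of the 10 ligands the mutant library differed from the wild-type library of the same number in the same direction in all 3 comparisons, the 5 that passed and WNT11. For the 5 that passed this follows from the lack of overlap between the lines, which 45.7% of all genes share. The share of all genes with the same direction in all 3 comparisons was not counted. WNT16 differed by nearly the same amount each time, 2.02, 2.02 and 2.31 on the log2 scale. WNT7A differed by -2.84, -4.84 and -4.95, WNT5A by -2.13, -4.58 and -4.31, and WNT2 by -0.76, -3.29 and -2.50. In each of these 3 ligands the difference between the libraries numbered 1 was the smallest. WNT2B, WNT3 and WNT4 differed in the opposite direction in number 1 (-0.04, -0.73 and 0.28) from numbers 2 and 3 (1.57 and 1.55, 1.31 and 1.54, -1.61 and -1.71). That is 3 of the 10 ligands, and 39.2% of all genes did the same. Without both libraries numbered 1, 9 of the 10 ligands passed in limma, all but WNT6, as did 82.2% of all genes. In that fit of 2 against 2 libraries the log2 fold change was 1.56 for WNT2B, 1.43 for WNT3, -1.66 for WNT4, 0.60 for WNT11 and 2.16 for WNT16.

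**Figure D3:**
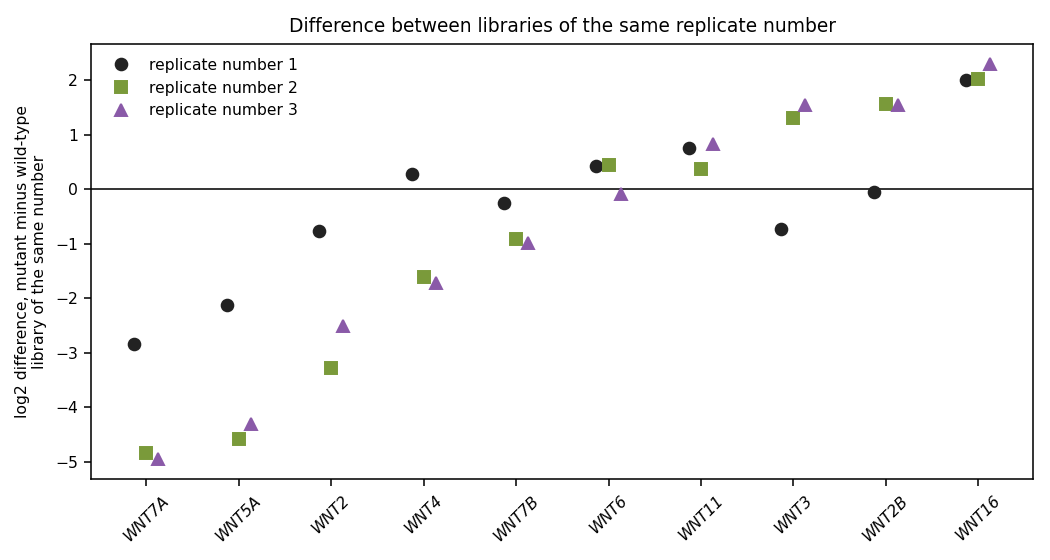
Log2 difference between the mutant and wild-type library of the same replicate number for each of the 10 ligands. The labels do not state whether libraries of the same number were paired. Number 1 (dark circles) lies nearest 0 for WNT7A (-2.84), WNT5A (-2.13) and WNT2 (-0.76) and across 0 from the other numbers for WNT4, WNT3 and WNT2B, while the points of WNT16 lie together (2.02 to 2.31).

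Levels of different ligands were compared per length, as recovered reads per kilobase of exon and M reads in genes. In wild-type cells WNT16 (13.1 ± 5.12, SD, n = 3) and WNT7B (9.08 ± 1.15) were the highest and overlapped, followed by WNT7A (5.61 ± 1.74), which was apart from both its neighbours in the order. WNT6 (1.84 ± 0.344), WNT4 (1.39 ± 0.253) and WNT11 (1.08 ± 0.170) came next, WNT6 overlapping WNT4 and WNT4 overlapping WNT11. WNT3 (0.568 ± 0.301) and WNT2 (0.511 ± 0.229) overlapped, as did WNT5A (0.138 ± 0.0646) and WNT2B (0.132 ± 0.0358), the lowest pair. In mutant cells WNT16 reached 54.8 ± 18.2 and stood clear of WNT7B (5.40 ± 0.902), which stood clear of WNT6 (2.17 ± 0.532). WNT6 and WNT11 (1.71 ± 0.488) overlapped, and so in turn did WNT3 (0.870 ± 0.285), WNT4 (0.780 ± 0.568), WNT7A (0.303 ± 0.163) and WNT2B (0.269 ± 0.0900). WNT2 (0.103 ± 0.0445) and WNT5A (0.00674 ± 0.00462) closed the order, each apart from its neighbours. WNT7A thus moved from rank 3 in wild-type to rank 7 in mutant cells. Set against the tested genes with an annotated exon length, the mean level of WNT7A lay above 55.6% of them in wild-type and 10.3% in mutant cells. That of WNT16 lay above 75.0% and 94.8%.

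**Figure D4:**
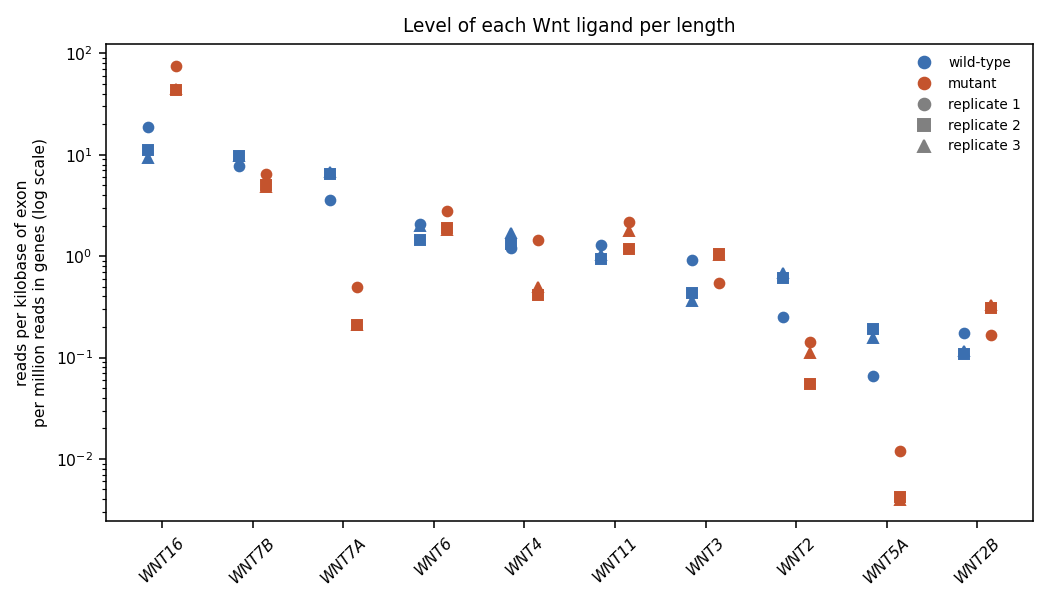
Level of each ligand in each library, in reads per kilobase of exon and M reads in genes on a log axis, ordered by the wild-type mean (blue wild-type, red mutant, symbols for the replicate number). WNT16 is the highest ligand by mean in both lines (13.1 and 54.8), and WNT7A and WNT5A show the widest gaps between the lines.

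WNT16 made up a larger share of the RNA of the 10 ligands in mutant cells. Of the summed level of the 10 ligands per length it took 52.2%, 34.6% and 29.1% in the wild-type and 84.2%, 81.3% and 80.8% in the mutant libraries. WNT7B took 21.4%, 29.9% and 30.8% against 7.16%, 9.22% and 8.68%, and WNT7A took 9.95%, 19.9% and 21.3% against 0.547%, 0.390% and 0.376%. The shares did not overlap between the lines for any of these 3 ligands. The summed level was 36.3, 32.4 and 31.8 in wild-type and 89.9, 54.1 and 55.1 in mutant libraries. Without WNT16 it was 17.3, 21.2 and 22.6 against 14.2, 10.1 and 10.6. The sum over the 10 ligands was thus higher and the sum over the other 9 lower in every mutant library than in every wild-type one, and no test was made of these sums.

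**Figure D5:**
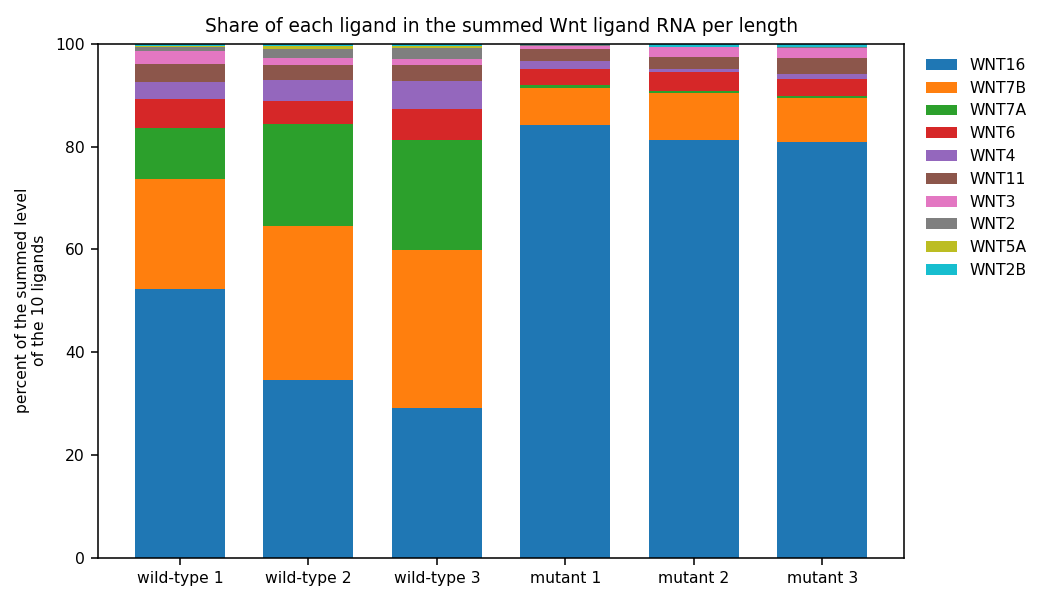
Share of each ligand in the summed level of the 10 ligands per length, in percent, for each library. WNT16 takes 29.1% to 52.2% in wild-type and 80.8% to 84.2% in mutant libraries. By mean, WNT7B and WNT7A take the next shares in wild-type cells, though in wild-type 3 WNT7B (30.8%) lies above WNT16 (29.1%).

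The rest of the WNT family was read beside the 10 ligands. Of 9 other WNT genes listed, 8 were in the table and 5 passed the minimum. WNT5B, a non-canonical relative of WNT5A, was read at 31.9, 23.3 and 25.0 normalized counts in wild-type and 47.4, 57.5 and 70.0 in mutant libraries. It rose with no overlap between the lines (log2 fold change 1.09, SE 0.32, limma adjusted p = 0.0468), or 0.85 relative to the median gene. This call was not made by edgeR (adjusted p = 0.0580) or DESeq2 (adjusted p = 0.0585). In limma it was lost with TMM scaling (adjusted p = 0.0572), DESeq2 scaling (0.0583) or no filter on low values (0.0552). The direction of WNT5B was thus opposite to that of WNT5A. WNT10B averaged 235 ± 91.3 in wild-type and 409 ± 153 in mutant cells (SD, n = 3, log2 fold change 0.78, limma adjusted p = 0.153). Its level per length averaged 2.50 in wild-type and 4.23 in mutant cells. That is above the mean of WNT6 (1.84 and 2.17), and it is not part of the sums and shares above. WNT9A (-0.70, limma adjusted p = 0.104), WNT10A (0.38, adjusted p = 0.379) and WNT8B (-0.55, adjusted p = 0.398) did not pass, though the values of WNT9A did not overlap between the lines and DESeq2 called it lower (-0.97, adjusted p = 0.0248), and WNT10A turned to -0.01 in edgeR without wild-type 3. WNT1, WNT3A and WNT8A were under the minimum, with at most 5 reads in a library. WNT1 had 1 read over the wild-type libraries and 11 over the mutant ones, a ratio of 8.26 with an exact 95% counting interval of 1.20 to 355.

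Genes next to the ligands on the chromosome were read for comparison. The neighbours of WNT16 had smaller values than WNT16 itself, CPED1 with a log2 fold change of 0.20 (limma adjusted p = 0.623) and FAM3C with 0.56 (adjusted p = 0.0819), and of 7 genes tested within 1 Mb 1 was called higher and 0 lower. Around WNT7A, 2 of 13 tested genes were called higher and 2 lower, and its neighbour FBLN2, a matrix protein, averaged 130 and 43.5 normalized counts without passing (-3.02, adjusted p = 0.0721). Around WNT7B, which fell, 7 of 19 other tested genes within 1 Mb were called higher, 1 lower and the rest not, where 17.3% of all genes were called higher and 10.0% lower. ATXN10, its left neighbour, rose by a log2 fold change of 1.04 (limma adjusted p = 0.0412). Around WNT5A no gene within 1 Mb passed the minimum, and its neighbours CACNA2D3 and ERC2 averaged under 5 normalized counts in both lines.

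The genes with the pattern most like that of the most abundant ligands were found by the root mean square difference of centred log2 values over the 6 libraries, among 12614 genes averaging 50 or more normalized counts. For WNT16 these were CLDN2 (0.19), FRMD4B (0.22) and PEG10 (0.22), where the median gene differed by 1.03. For WNT7B they were RGP1 (0.02), CYTH2 (0.03) and MINK1 (0.03), with a median of 0.61. These distances are descriptions over 6 libraries that share 1 contrast.

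Genes that process or receive Wnt ligands were read as 7 further lists. Of 10 genes of lipidation and secretion, 2 rose, 2 fell and 6 did not pass, with a median log2 fold change of 0.55 against 0.24 over all genes. PORCN, which lipidates every Wnt ligand, fell from 828 to 339 normalized counts (-1.30, SE 0.27, limma adjusted p = 0.0404). SCD, which desaturates the fatty acid that PORCN attaches, fell as well (-1.60, adjusted p = 0.0427), while the retromer subunits VPS29 (1.22, adjusted p = 0.0428) and VPS26A (0.68, adjusted p = 0.0424), which recycle WLS, rose. The call of VPS26A was not made by edgeR (adjusted p = 0.0610). WLS itself averaged 5352 and 7711 normalized counts and did not pass (0.54, limma adjusted p = 0.0544).

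Among 8 tested genes of 20 listed extracellular inhibitors, 3 rose and 1 fell, with a median log2 fold change of 0.52. DKK1 (3.46, limma adjusted p = 0.0402) and DKK4 (3.21, adjusted p = 0.0404), which block LRP5 and LRP6, rose, DKK4 from 2.50 to 25.1 normalized counts and thus into the test only through mutant cells. NOTUM, which removes the lipid of Wnt ligands, rose in limma (0.69, adjusted p = 0.0410) and did not pass in edgeR (adjusted p = 0.0760). KREMEN2, a DKK receptor, fell (-0.83, limma adjusted p = 0.0404). Of 12 tested genes of heparan sulfate proteoglycans, which hold Wnt ligands at the cell surface, 1 rose and 3 fell (median -0.05). The heparan sulfate polymerase EXT1 (-1.11, limma adjusted p = 0.0404) and the syndecan SDC4 (-0.78, adjusted p = 0.0404) fell in limma and edgeR. The glypican GPC3 (-2.69, adjusted p = 0.0418) and the sulfotransferase HS2ST1 (2.36, adjusted p = 0.0424) passed in limma and not in edgeR (adjusted p = 0.0513 and 0.0550).

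Of 10 tested Frizzled and LRP receptors, 3 rose and 0 fell, with a median log2 fold change of 0.66. These were FZD1 (1.21, limma adjusted p = 0.0404), FZD6 (1.12, adjusted p = 0.0469) and FZD2 (0.73, adjusted p = 0.0496), the last not called by edgeR (adjusted p = 0.0725). In the list of R-spondins, their receptors and the ligases that remove Frizzled, 1 of 5 tested genes rose, the ligase ZNRF3 (1.61, limma adjusted p = 0.0376), and the median was -0.04. Of 6 tested receptors of non-canonical or ligand-selective signaling, RYK rose (1.22, adjusted p = 0.0414), ROR1 fell (-1.36, adjusted p = 0.0462) and 4 did not pass (median 0.32). Of 15 tested genes of planar cell polarity and JNK signaling, 2 rose, 2 fell and 11 did not pass (median 0.08). The polarity proteins VANGL1 (1.56, limma adjusted p = 0.0404) and CELSR1 (1.24, adjusted p = 0.0404) rose. VANGL2, which entered the test only through wild-type cells, fell from 19.6 to 2.83 normalized counts (-2.57, adjusted p = 0.0404), and the formin DAAM1 fell too (-1.10, adjusted p = 0.0428). As for the ligands, these calls were made over all genes tested, of which 17.3% were called higher and 10.0% lower, and limma called 0 genes without wild-type 2 or wild-type 3, 23 without mutant 2 and 20 without mutant 3.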

How the data were processed

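The series holds RNA of both lines, 3 replicates each. Per the labels the molecule is polyA RNA, while the protocol describes removal of ribosomal RNA with Ribo-Zero. Reads were mapped by the authors to hg19 with TopHat2 2.1.0 and summarized with HTSeq, and CASAVA 1.8.2 is named in the submitters' processing notes. The versions of HTSeq and DESeq and the gene annotation are not given in the sources used here. The deposited signal values are reads per gene scaled by the authors with 1 factor per library, found here as 0.600 to 1.58. They were whole multiples of 1 step for 100% of values within 0.01 read, which gave the reads in genes per sample (21.8 to 57.9 M). More deeply sequenced libraries have a smaller counting error, and the exact intervals of summed reads cover counting error only, while those of limma rest on the spread between samples. Further columns of the table hold the authors' fold change and p-values, which were not used.

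The test was that of limma 3.58.1 in R 4.3.3 (eBayes with a trend, log2 of the normalized count + 1, mean of at least 10, Benjamini-Hochberg adjusted p under 0.05, no covariate). The count test of edgeR 4.0.16 on the recovered reads called 3408 genes, and DESeq2 1.42.0 was also run. The fits were tested on simulated data. Of 18236 symbols, 15673 matched GENCODE 44 directly, 1482 through a synonym, and 1081 were unmatched. Promoter windows are from RefSeq (GRCh38.p14). Named genes are the 10 ligands, the other WNT genes, up to 4 called genes with the smallest p of each list, CTNNB1 and AXIN2, overlapping or neighbouring genes, and the 3 genes most like each of the 2 ligands of highest level. WLS and the markers EPCAM, CDH1, CDX2, KRT18, CD68, PTPRC, ELAVL4 and those of fibroblasts were named after the values were seen. The ligands and the 13 lists were chosen with earlier results of these data known. Alternatives covered the tool, scaling, filter, pseudocount, replicate block, gene length, and the removal of each library or of both libraries numbered 1. Figures were drawn in Python 3.11.15 with matplotlib 3.10.9.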

Additional observations from a re-analysis of the deposited data

How the results depend on the processing

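The 5 calls among the ligands held in edgeR, DESeq2, both rescalings, without the filter and with a pseudocount of 0.5 or 5. A mean of at least 50 normalized counts left 8 ligands, of which 1 was called higher and 2 lower, since WNT2 and WNT5A fell under it. The number of genes called was 3976 in limma and 6153 in DESeq2. Leaving out 1 library gave 0 to 8261 genes, 0 to 2 ligands higher and 0 to 5 lower in limma, and 0 to 2 and 0 to 5 in edgeR. Without both libraries numbered 1 there were 11944 genes, 4 ligands higher and 5 lower. WNT6 turned to -0.0540 in edgeR without wild-type 2 and to -0.216 without mutant 1, and WNT10A to -0.0145 in edgeR without wild-type 3. The cause of these changes was not tested. Ranks per length were the same with the longest transcript as the length.

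With the replicate block, 0 genes were called (4305 at an unadjusted p under 0.05), and so 0 ligands higher and 0 lower, while all 5 ligands kept an unadjusted p under 0.05. Libraries of the same number deviated from their line in opposite directions (correlations of -0.53, -0.43 and -0.31). So did wild-type 2 with mutant 3 (-0.42) and wild-type 3 with mutant 2 (-0.40). Since libraries of different numbers also did this, the correlations cannot decide whether the numbers pair the samples. Depth limits WNT5A in mutant cells (1 to 5 reads) and WNT1, WNT3A and WNT8A most.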
